A study of Homo sapiens with 9 samples.

Results

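Notch receptors, their ligands and their target genes were followed across 3 related human breast epithelial cell lines. The genes were the receptors NOTCH1, NOTCH2, NOTCH3 and NOTCH4, the ligands JAG1, JAG2 and DLL1, and the targets HES1, HEY1 and NRARP. They were chosen by gene symbol, and all 10 were present among the 62666 genes of the table. All 10 also passed the filter on low counts, which left 17910 genes to be tested.

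RNA sequencing had been done on 3 libraries per line, 9 in all, from polyadenylated RNA with a stranded kit, to study how expression changes as breast cancer progresses. MCF10A cells are mammary epithelial cells that form no tumours, MCF10AT1 is their derivative carrying an introduced activated HRAS gene, and MCF10Ca1a is a tumour-forming line derived from MCF10AT1 grown as xenografts. Each line is 1 cell line, so a difference between lines is a difference between these cultures and not between sets of tumours. MCF10A and MCF10Ca1a were grown in 5% horse serum and MCF10AT1 in 2.5%, so serum and line cannot be told apart in comparisons with MCF10AT1. All 3 lines received, in DMEM/F12, insulin at 10 µg/mL, EGF at 20 ng/mL, hydrocortisone at 500 ng/mL, cholera toxin at 100 ng/mL, L-glutamine at 2 mM and NaHCO3 at 14 mM. The labels do not say that the replicates were separate cultures, so p-values measure the spread between these libraries, which may be technical.

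Notch receptors are single-pass membrane proteins that bind ligands of the Jagged and Delta families on neighbouring cells. Ligand binding exposes the receptor to an ADAM protease and then to gamma-secretase, which frees the intracellular domain. That fragment enters the nucleus, joins the DNA-binding protein RBPJ and a Mastermind coactivator, and switches on genes such as HES1, HEY1 and NRARP. In the mammary gland the pathway takes part in luminal cell fate, and its receptors and ligands have been studied widely in breast cancer.

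HES1 shows how a target gene can carry the RBPJ sequence, so its upstream region is printed here. RefSeq promoter windows on GRCh38.p14 (250 bases before to 50 after a gene's start) were searched for TGGGAA, the core of the sequence that RBPJ binds, on both strands (TTCCCA on the other). Of 35116 windows in the table, 24.0% held at least 1 copy and 3.80% held at least 2. Of the 10 genes, 8 were matched (all but DLL1 and HEY1), and HES1 alone among these 8 held a copy. The HES1 stretch lies at chr3:194135898-194136144 on the plus strand, and the HES4 stretch, shown for comparison, at chr1:1000156-1000185 on the minus strand. Capitals mark TGGGAA and, in HES1, CGCGTG, the reverse complement of the CACGCG sequence that HES and HEY proteins bind.
HES1: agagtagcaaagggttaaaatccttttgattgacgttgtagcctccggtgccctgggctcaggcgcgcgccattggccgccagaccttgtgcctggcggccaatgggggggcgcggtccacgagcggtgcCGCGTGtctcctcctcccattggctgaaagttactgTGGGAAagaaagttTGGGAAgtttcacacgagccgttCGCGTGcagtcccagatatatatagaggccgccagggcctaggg
HES4: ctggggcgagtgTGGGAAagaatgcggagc
The HES1 copies begin 84 and 70 bases before the RefSeq start, both on the gene's strand. CACGCG, on either strand, was in the windows of 4 of the 8 matched genes and in 11.4% of all windows, and CACGTG was in 0 of the 8 and in 7.26% of all. These matches describe letters in a window and do not show binding.

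Library totals were 64.2 to 69.5 M estimated counts (M, mega) for MCF10A, 62.9 to 68.1 M for MCF10AT1 and 32.9 to 35.2 M for MCF10Ca1a. The malignant line was therefore read at lower depth, which matters most for NOTCH4 and DLL1. No 2 replicate libraries were identical, and MCF10A replicates 1 and 3 differed most from each other. Mean HRAS, measured as counts per mega-count of the library (CPM) after TMM scaling, was 41.0, 97.6 and 145 in MCF10A, MCF10AT1 and MCF10Ca1a, in the order of the lines' descent. The summed level of 6 epithelial markers, in length-scaled units summing to the same total in each library (TPM), was 1750 to 2260 in MCF10A, 3140 to 3460 in MCF10AT1 and 3390 to 3520 in MCF10Ca1a, and that of 6 basal markers was 2370 to 3280, 2810 to 3120 and 2890 to 2950. Basal markers moved apart under that sum: from MCF10A to MCF10AT1 to MCF10Ca1a, KRT14 averaged 205, 38.8 and 4.78 TPM, KRT5 1423, 1632 and 420, and ITGA6 280, 347 and 173. KRT17 averaged 670, 742 and 1829 TPM, ITGB4 168, 212 and 462, and TP63 26.0, 16.2 and 31.1. The sum over 7 luminal markers was 328 to 446, 952 to 1060 and 1170 to 1220 TPM. Most of it was KRT8 (means of 110.5, 448.6 and 441.5 TPM) and KRT18 (256.7, 553.7 and 692.8), which are also among the epithelial markers. GATA3 averaged 7.21, 6.68 and 9.07 TPM, FOXA1 4.2, 9.9 and 41.1, and ESR1 0.177, 0.655 and 1.55. PGR had at most 2 counts in a library and ELF5 at most 1. The part of the luminal markers in the changes below was not tested.

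**Figure D1:**
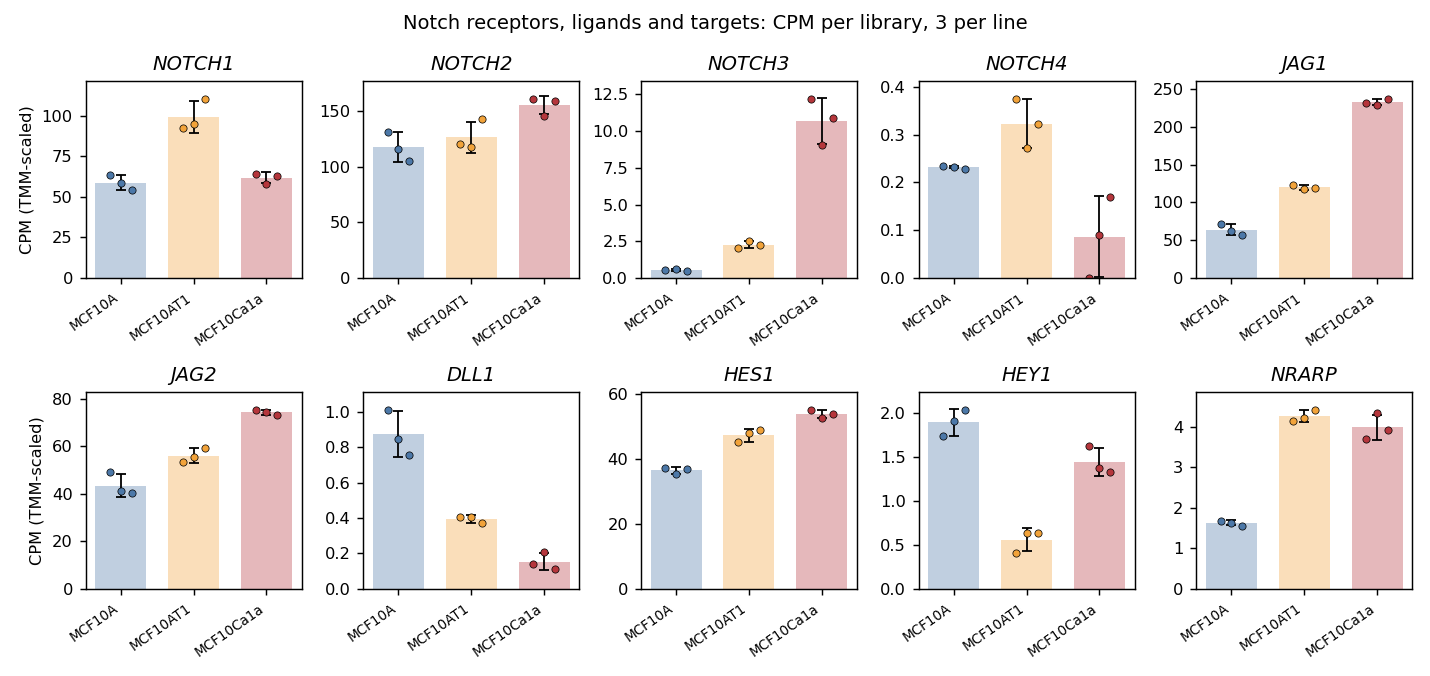
Levels of the 10 genes in each library. The y axis is CPM after TMM scaling, starting at 0, points are single libraries, and bars and whiskers are the mean and SD of 3 libraries. NOTCH3 and JAG1 step up from line to line (NOTCH3 means of 0.535, 2.28 and 10.7 CPM), DLL1 steps down, and HEY1 is lowest in MCF10AT1.

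Among the receptors, NOTCH3 had the largest change between lines and NOTCH1 was highest in MCF10AT1. NOTCH3 is normally prominent in mural cells and in luminal mammary progenitors, and it stood at 35, 39 and 32 counts in the MCF10A libraries, 138, 168 and 139 in MCF10AT1, and 436, 305 and 385 in MCF10Ca1a. As CPM, the MCF10A libraries held 0.546, 0.602 and 0.458 CPM, the MCF10AT1 libraries 2.07, 2.53 and 2.24, and the MCF10Ca1a libraries 12.2, 9.06 and 10.9. The 3 lines did not overlap. NOTCH3 rose 4.26-fold from MCF10A to MCF10AT1 (log2 change 2.09, SE 0.166, edgeR adjusted p = 1.15e-07) and 4.69-fold from MCF10AT1 to MCF10Ca1a (log2 change 2.23, SE 0.132, edgeR adjusted p = 1.87e-09). The change from MCF10A to MCF10Ca1a was 19.97-fold (log2 change 4.32, SE 0.157, edgeR adjusted p = 8.88e-12).

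NOTCH1, a receptor with a role in luminal commitment, moved up and back down. Its libraries held 63.4, 58.5 and 54.1 CPM for MCF10A, 92.5, 94.6 and 110 for MCF10AT1, and 64.0, 57.8 and 63.1 for MCF10Ca1a. The MCF10AT1 libraries lay above all 6 others, while those of MCF10A and MCF10Ca1a overlapped. NOTCH1 rose by 0.76 on the log2 scale from MCF10A to MCF10AT1 (SE 0.0757, edgeR adjusted p = 1.18e-06) and fell by 0.69 from MCF10AT1 to MCF10Ca1a (SE 0.0768, edgeR adjusted p = 1.65e-06). Between MCF10A and MCF10Ca1a the log2 difference was 0.07 (SE 0.0771, edgeR adjusted p = 0.404), which does not show that the lines have the same level.

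NOTCH2, the most abundant receptor in every line per length, varied little. Its libraries held 132, 116 and 105 CPM for MCF10A, 120, 117 and 142 for MCF10AT1, and 161, 146 and 159 for MCF10Ca1a. The MCF10Ca1a libraries were above the rest, and those of the other lines overlapped. On the log2 scale NOTCH2 rose by 0.40 from MCF10A to MCF10Ca1a (SE 0.0877, edgeR adjusted p = 0.000815) and by 0.29 from MCF10AT1 to MCF10Ca1a (SE 0.0876, edgeR adjusted p = 0.00718). The second of these calls was lost when MCF10AT1 replicate 2 was left out (0.23, edgeR adjusted p = 0.0521) and with the deposited length-scaled (edgeR adjusted p = 0.0563) and scaled counts (edgeR adjusted p = 0.0757). NOTCH2 is near-identical over part of its length to NOTCH2NLA, NOTCH2NLB, NOTCH2NLC and NOTCH2NLR, so the split of reads between them is uncertain. The MCF10AT1 and MCF10A levels differed by 0.10 (edgeR adjusted p = 0.317) for NOTCH2 alone and by 0.18 (edgeR adjusted p = 0.0423) when the 5 genes were summed, an alternative chosen after the data were seen. For NOTCH2 alone that difference passed once MCF10A replicate 1 was left out (0.19, edgeR adjusted p = 0.0406).

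NOTCH4, best known from endothelium, was close to the detection limit. It had 15, 15 and 16 counts for MCF10A, 25, 18 and 20 for MCF10AT1, and 0, 3 and 6 for MCF10Ca1a. The MCF10Ca1a libraries lay below the others, and those of MCF10AT1 all lay above those of MCF10A without passing the test (log2 difference 0.48, edgeR adjusted p = 0.304). NOTCH4 fell by 1.88 on the log2 scale from MCF10AT1 to MCF10Ca1a (SE 0.534, edgeR adjusted p = 0.00533) and by 1.41 from MCF10A to MCF10Ca1a (SE 0.559, edgeR adjusted p = 0.0322). The first of these was not called with scaled counts (-1.73, edgeR adjusted p = 0.102) or on log2(TPM + 1) without the filter (limma adjusted p = 0.0618), and it ran from -1.30 without MCF10Ca1a replicate 1 to -2.84 without MCF10Ca1a replicate 3. The second did not hold with DESeq2 (log2 change -1.39, DESeq2 adjusted p = 0.0552), nor without MCF10Ca1a replicate 1, which had 0 counts (-0.82, edgeR adjusted p = 0.113), nor with length-scaled counts (-0.36, edgeR adjusted p = 0.695). It was also lost without MCF10A replicate 2 (edgeR adjusted p = 0.0575), MCF10A replicate 3 (edgeR adjusted p = 0.0515) or MCF10Ca1a replicate 2 (edgeR adjusted p = 0.0717). In all, this second call was lost in 11 of 19 alternatives. These include scaled counts (-0.39, edgeR adjusted p = 0.718), log2(TPM + 1) (-0.02, limma adjusted p = 0.814) and log2(TPM + 0.1) (-0.12, limma adjusted p = 0.774). Of its TPM, the 2-exon retained-intron transcript NOTCH4-205 took 0%, 41.8% and 0% in the MCF10A libraries, 96.5% on average in MCF10AT1 and 100% in the 2 MCF10Ca1a libraries with counts. The gene also overlaps GPSM3 on the same strand.

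NOTCH3 and NOTCH4 also mark vessels, so markers of endothelium were summed. The 6 endothelial markers reached 0.757 to 0.988 TPM in MCF10A, 0.934 to 1.36 in MCF10AT1 and 15.7 to 20.8 in MCF10Ca1a, and PECAM1 with a mean of 18.7 TPM made up nearly all of the last. PECAM1 averaged 0.626 and 1.01 TPM in MCF10A and MCF10AT1, so it was higher along with NOTCH3. CLDN5 had 0 counts in all 9 libraries, CDH5 at most 1 and VWF at most 3. KDR had 42, 30 and 40 counts for MCF10A, 32, 23 and 25 for MCF10AT1, and 0, 0 and 1 for MCF10Ca1a, and TEK had 27, 19 and 20, then 12, 5 and 16, then 3, 3 and 2. The 6 fibroblast markers summed to 6.43 to 7.20, 27.7 to 31.5 and 1.94 to 2.33 TPM, with DCN at 3.61, 27.9 and 0.329 TPM and COL1A1 at 3.06, 0.961 and 1.79 on average. PDGFRB, also a mural cell marker, had 0.0475, 0.0480 and 0.0409 TPM on average. The 6 blood markers summed to 8.43 to 13.1, 2.72 to 2.80 and 30.3 to 33.2 TPM, most of it CD68 (means of 10.8, 2.66 and 31.1). The part of these markers in the NOTCH3 and NOTCH4 levels was not tested.

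Measured per length, the receptor pool was made almost wholly of NOTCH2 and NOTCH1. NOTCH2 took 62.7% ± 1.30 (SD, n = 3) of the summed receptor TPM in MCF10A, 51.6% ± 0.984 in MCF10AT1 and 65.9% ± 0.402 in MCF10Ca1a. NOTCH1 took 36.6% ± 1.06, 46.4% ± 0.756 and 27.5% ± 0.920. NOTCH3 took 0.376% ± 0.0398, 1.19% ± 0.200 and 6.30% ± 0.737, so it remained a minor receptor even in the line where it was highest. The summed receptor level was 22.5 ± 3.47 TPM in MCF10A, 27.4 ± 2.78 in MCF10AT1 and 30.95 ± 2.00 in MCF10Ca1a, and the libraries of neighbouring lines overlapped.

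**Figure D2:**
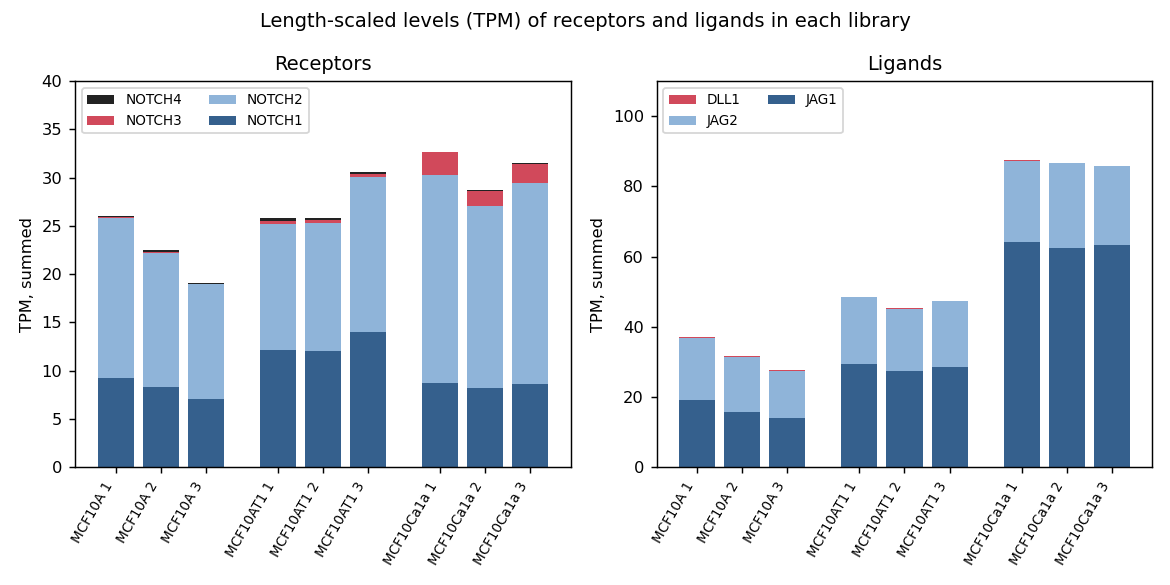
Summed TPM of the receptors (left) and ligands (right) in each of the 9 libraries, both axes starting at 0. Each bar is 1 library and its colours are the genes. Ligand totals of 85.9 to 87.4 TPM in MCF10Ca1a lie above those of the other lines, most of it JAG1, while receptor totals overlap between neighbouring lines.

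Both Jagged ligands were higher in each later line and DLL1 was lower. JAG1, a strong activating ligand, had 71.7, 62.3 and 57.2 CPM for MCF10A, 123, 117 and 119 for MCF10AT1, and 232, 229 and 237 for MCF10Ca1a. The lines did not overlap, and each step was close to a doubling. JAG1 rose by 0.91 on the log2 scale at the first step (SE 0.0706, edgeR adjusted p = 8.66e-08) and by 0.96 at the second (SE 0.0700, edgeR adjusted p = 1.79e-08). Over both it rose 3.65-fold (log2 change 1.87, SE 0.0720, edgeR adjusted p = 1.57e-11).

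JAG2, the second Jagged ligand, had 49.2, 41.0 and 40.1 CPM for MCF10A, 53.3, 55.4 and 59.4 for MCF10AT1, and 75.3, 74.3 and 73.0 for MCF10Ca1a. Its lines were also separate. JAG2 rose by 0.37 on the log2 scale at the first step (SE 0.0718, edgeR adjusted p = 0.000547) and by 0.41 at the second (SE 0.0721, edgeR adjusted p = 0.000145). The second rise lost its call in 2 of 20 alternatives: with length-scaled counts it was 0.03 (edgeR adjusted p = 0.645) and with scaled counts 0.04 (edgeR adjusted p = 0.551). On log2(TPM + 0.1) it kept its call at 0.33, which is 0.12 above the median shift of all genes, and on log2(TPM + 1) at 0.31, which is 0.18 above it. The whole difference between MCF10Ca1a and MCF10A was 0.77 (SE 0.0727, edgeR adjusted p = 2.32e-07).

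DLL1, a Delta ligand linked to mammary stem and basal cells, had 65, 55 and 53 counts for MCF10A, 27, 27 and 23 for MCF10AT1, and 5, 7 and 4 for MCF10Ca1a. As CPM the means were 0.874 ± 0.129, 0.394 ± 0.0206 and 0.154 ± 0.0491 (SD, n = 3), with no overlap between lines. DLL1 fell by 1.14 on the log2 scale at the first step (SE 0.215, edgeR adjusted p = 0.000407) and by 1.36 at the second (SE 0.313, edgeR adjusted p = 0.00128). The second-step call was lost with scaled counts (-1.14, edgeR adjusted p = 0.0585) and on log2(TPM + 1) with the filter (-0.08, limma adjusted p = 0.115) and without it (limma adjusted p = 0.105). Between the ends of the series it fell by 2.50 (SE 0.285, edgeR adjusted p = 1.85e-06). DLL1 overlaps FAM120B on the opposite strand and AL078605.1 on its own, and NOTCH1 and JAG1 overlap the antisense genes AL592301.1 and AL050403.2. The strand setting of the counting is not given in the sources used here.

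Summed over the 3 ligands, the level was 32.1 ± 4.77 TPM (SD, n = 3) in MCF10A, 47.1 ± 1.66 in MCF10AT1 and 86.7 ± 0.747 in MCF10Ca1a. JAG1 took 51.0% ± 0.946, 60.4% ± 0.305 and 73.1% ± 0.978 of it, and JAG2 48.1% ± 0.994, 39.4% ± 0.323 and 26.8% ± 0.955. The pair were thus nearly level in MCF10A and apart in MCF10Ca1a. DLL1 took 0.954% ± 0.0670 in MCF10A and 0.0682% ± 0.0230 in MCF10Ca1a.

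The 3 targets followed 3 different courses. HES1, a repressor that keeps progenitor cells from differentiating, had 37.3, 35.3 and 36.8 CPM for MCF10A, 45.1, 47.9 and 49.0 for MCF10AT1, and 55.2, 52.7 and 53.9 for MCF10Ca1a. The lines were separate, but the steps were small. HES1 rose by 0.38 on the log2 scale at the first step (SE 0.0496, edgeR adjusted p = 1.73e-05) and by 0.19 at the second (SE 0.050, edgeR adjusted p = 0.00359). Without the filter on low counts the second was 0.10 (edgeR adjusted p = 0.209). From MCF10A to MCF10Ca1a HES1 rose by 0.56 (SE 0.0505, edgeR adjusted p = 1.35e-07).

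NRARP, a small ankyrin-repeat protein that is induced by Notch and dampens it, changed at the first step. Its libraries held 1.68, 1.64 and 1.56 CPM for MCF10A, 4.14, 4.22 and 4.43 for MCF10AT1, and 3.72, 4.34 and 3.92 for MCF10Ca1a. MCF10A was lowest, and the other lines overlapped. NRARP rose by 1.39 on the log2 scale from MCF10A to MCF10AT1 (SE 0.107, edgeR adjusted p = 8.25e-08) and was higher by 1.29 in MCF10Ca1a than in MCF10A (SE 0.112, edgeR adjusted p = 9.40e-08). The MCF10Ca1a to MCF10AT1 difference was -0.10 (SE 0.104, edgeR adjusted p = 0.411).

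HEY1, a Hairy-related repressor, went the other way at the first step. It had 1.73, 1.90 and 2.03 CPM for MCF10A, 0.405, 0.634 and 0.628 for MCF10AT1, and 1.62, 1.37 and 1.33 for MCF10Ca1a. MCF10AT1 was lowest, and MCF10Ca1a lay just under MCF10A without overlap. HEY1 fell by 1.76 on the log2 scale from MCF10A to MCF10AT1 (SE 0.185, edgeR adjusted p = 1.87e-06) and rose by 1.37 from there to MCF10Ca1a (SE 0.200, edgeR adjusted p = 2.33e-05). The difference of -0.39 between MCF10Ca1a and MCF10A did not pass (SE 0.177, edgeR adjusted p = 0.0555). It did pass without the filter (-0.47, edgeR adjusted p = 0.0338) and when replicate 1 of MCF10A (-0.46, edgeR adjusted p = 0.0396), of MCF10AT1 (-0.41, edgeR adjusted p = 0.0293) or of MCF10Ca1a (-0.49, edgeR adjusted p = 0.0448) was left out.

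**Figure D3:**
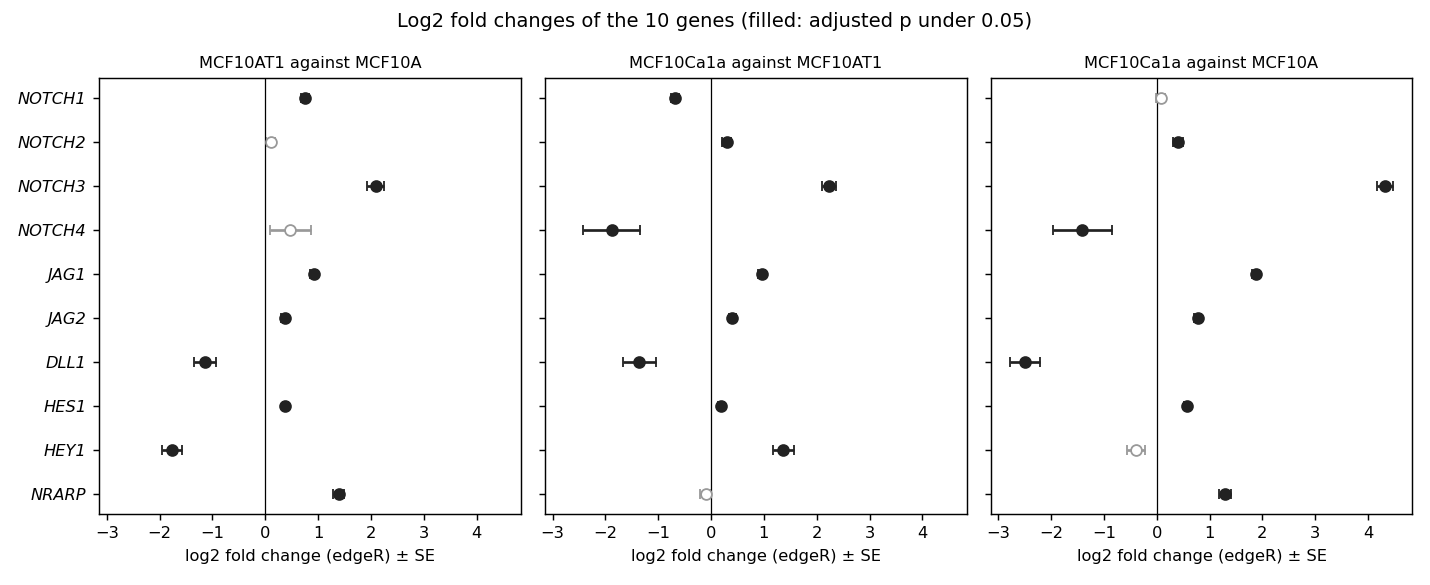
Log2 fold changes of the 10 genes in the 3 comparisons. The x axis is the edgeR estimate, whiskers are its SE, and filled points have an adjusted p under 0.05. NOTCH3 (4.32) and JAG1 (1.87) are farthest to the right for MCF10Ca1a against MCF10A, and DLL1 (-2.50) is farthest to the left.

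Counted together, 8 of the 10 genes passed the test between MCF10AT1 and MCF10A (6 higher and 2 lower in MCF10AT1), where 61.6% of all tested genes were called (29.8% higher, 31.8% lower). Between MCF10Ca1a and MCF10AT1, 9 of 10 passed (6 higher, 3 lower) against 78.4% of all genes (38.0% higher, 40.3% lower). Between MCF10Ca1a and MCF10A, 8 of 10 passed (6 higher, 2 lower) against 80.9% (39.0% higher, 41.9% lower). Counts of calls are thus near the background, since most genes differed between these lines. The median log2 change of the 10 was 0.43, 0.24 and 0.48 in the same order, and over all tested genes it was -0.00, -0.04 and -0.05. Groups did not overlap in CPM for 9 of 10 genes in each comparison, against 65.4%, 81.9% and 81.5% of all genes. Each line enters 2 of the 3 comparisons, so they are not independent.

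Levels per length placed HES1 first in each line. In MCF10A its mean was 43.9 ± 3.25 TPM (SD, n = 3), followed by JAG1 at 16.4 ± 2.65, JAG2 at 15.4 ± 2.08 and NOTCH2 at 14.1 ± 2.42, whose libraries overlapped. NOTCH1 followed at 8.20 ± 1.05, then HEY1 at 1.47 ± 0.0132 and NRARP at 1.38 ± 0.151, which overlapped. DLL1 at 0.308 ± 0.0677, NOTCH4 at 0.0912 ± 0.0867 and NOTCH3 at 0.0845 ± 0.0150 came last, the last pair again overlapping. In MCF10AT1 the order was HES1 (51.0 ± 1.16), JAG1 (28.4 ± 0.989), JAG2 (18.5 ± 0.699), NOTCH2 (14.2 ± 1.71) and NOTCH1 (12.7 ± 1.08), with overlap only between NOTCH2 and NOTCH1 among these. Its lower end was NRARP (3.19 ± 0.0662), HEY1 (0.399 ± 0.0871), NOTCH3 (0.324 ± 0.0353), NOTCH4 (0.218 ± 0.0353) and DLL1 (0.123 ± 0.00785), where HEY1 and NOTCH3 overlapped. In MCF10Ca1a HES1 (69.2 ± 1.19), JAG1 (63.4 ± 0.943), JAG2 (23.2 ± 0.876), NOTCH2 (20.4 ± 1.43) and NOTCH1 (8.51 ± 0.275) were all separate. NRARP (3.69 ± 0.351), NOTCH3 (1.96 ± 0.345) and HEY1 (1.29 ± 0.117) followed, and NOTCH4 (0.0770 ± 0.0747) and DLL1 (0.0591 ± 0.020) overlapped at the bottom. NOTCH3 lay above HEY1 in that line, and its mean lay below that of HEY1 in the other lines.

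Genes near a member on the chromosome were also summarised. NOTCH1, at 136494433 to 136545786 on chromosome 9 of GRCh38, and NRARP, at 137300482 to 137302251 on the same chromosome, lie in a region whose median was higher in both derived lines than in MCF10A. From MCF10A to MCF10AT1 the median log2 change was 0.36 over the 99 tested genes within 5 Mb of NOTCH1 and 0.48 over chromosome 9, beside 0.76 for NOTCH1 and 1.39 for NRARP. From MCF10A to MCF10Ca1a the median within 5 Mb was 0.45, while NOTCH1 changed by 0.07 and NRARP by 1.29. Of the 99 neighbours of NOTCH1, 91 changed by more in size, and 34.3% had a lower signed change. HES1 (chromosome 3, 194136145 to 194138732) changed by 0.56 from MCF10A to MCF10Ca1a beside a median of 0.46 over 58 neighbours and 0.07 over its chromosome. NOTCH2 (chromosome 1, 119911553 to 120069626) changed by 0.40 beside 0.31 over 35 neighbours and 0.04 over its chromosome. JAG1 (chromosome 20, 10637684 to 10673999) rose by 1.87 beside a median of -0.48 over 30 neighbours and 0.39 over the whole chromosome. NOTCH3 (chromosome 19, 15159038 to 15200981) rose by 4.32 beside -0.07 over 251 neighbours and 0.28 over its chromosome. DLL1 (chromosome 6, 170282206 to 170306565) fell by 2.50 beside -0.25 over 29 and -0.15 over its chromosome. The others lie at 32194843 to 32224067 on chromosome 6 (NOTCH4), 105140981 to 105168824 on chromosome 14 (JAG2) and 79764010 to 79767863 on chromosome 8 (HEY1). Copy number was not measured here, and its part in these values was not tested.

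Within genes, the share of transcripts with retained introns was lower in MCF10Ca1a for 4 of the members. Transcripts of 6 members could be tested, 26 in all, by the share of their gene that each took. Members with a changed share numbered 1 of 6 between MCF10AT1 and MCF10A (7.63% of all genes tested), 4 of 6 between MCF10Ca1a and MCF10AT1 (45.5%) and 4 of 6 between MCF10Ca1a and MCF10A (54.3%). Of the 10 retained-intron transcripts of members that were tested, limma called 0 in the first comparison (also 0 at an unadjusted p under 0.05), and 7 lower and 0 higher in each of the others. At an unadjusted p under 0.05, 8 were lower than in MCF10AT1 and 7 lower than in MCF10A, with 0 higher. The 7 lower than in MCF10A include JAG2-203 (limma adjusted p = 0.0266), whose call was lost without MCF10A replicate 2 (limma adjusted p = 0.0817), MCF10A replicate 3 (limma adjusted p = 0.0773), MCF10Ca1a replicate 1 (limma adjusted p = 0.0703) or MCF10Ca1a replicate 3 (limma adjusted p = 0.0621). Among all 11225 retained-intron transcripts tested, 7.32% were lower and 3.80% higher in MCF10Ca1a than in MCF10AT1, and 7.39% lower and 6.82% higher than in MCF10A. The transcripts of a gene share its reads, so these are not independent counts.

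By TPM, retained-intron transcripts took 43.3% ± 6.39 (SD, n = 3) of JAG2 in MCF10A, 47.7% ± 3.41 in MCF10AT1 and 22.3% ± 1.88 in MCF10Ca1a. For HES1 the shares were 13.0% ± 3.29, 13.7% ± 0.383 and 5.42% ± 0.862. For NOTCH1 they were 7.61% ± 1.54, 8.16% ± 0.527 and 1.99% ± 0.440, and for JAG1 9.08% ± 2.04, 10.3% ± 1.0 and 5.01% ± 1.70. In these 4 genes MCF10Ca1a was lower than both other lines in every library. The retained-intron transcript NOTCH2-203 did not show this, with mean shares of 0.331%, 0.376% and 0.964% that did not pass the test (limma adjusted p = 0.721 for MCF10Ca1a against MCF10A), and that of NOTCH4, too low to test, was highest in MCF10Ca1a as given above. Types were known for the 202821 of 252876 transcripts that the annotation lists, and NOTCH1 transcripts without a type, such as ENST00000680003.1 with 9.40%, 9.21% and 0% of the gene, are not counted as retained introns. Over all genes the share was 4.40% ± 0.128, 4.32% ± 0.0509 and 4.79% ± 0.0772, with MCF10Ca1a highest.

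**Figure D4:**
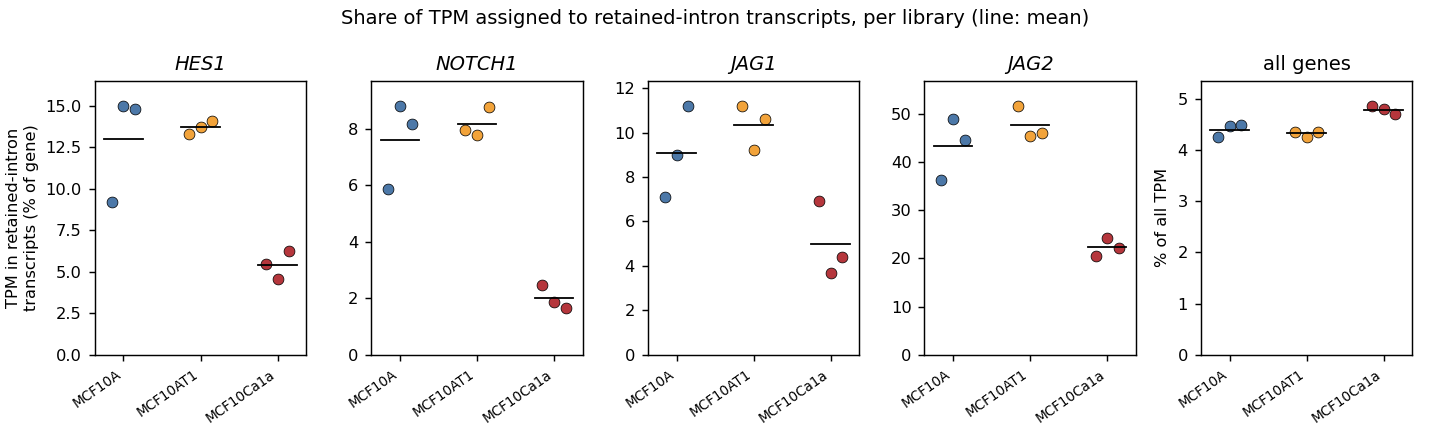
Percent of each gene's TPM assigned to retained-intron transcripts, and the same over all genes. Points are libraries, lines are means of 3, and the y axes start at 0. The MCF10Ca1a libraries lie below the others for HES1 (mean 5.42%), NOTCH1 (1.99%), JAG1 (5.01%) and JAG2 (22.3%), and above them over all genes (4.79%).

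Other transcripts took larger shares in MCF10Ca1a. The coding transcript HES1-201 took 87.0%, 86.3% and 94.6% of HES1 in MCF10A, MCF10AT1 and MCF10Ca1a, and its log2 share against the rest of the gene rose by 1.49 from MCF10AT1 to MCF10Ca1a (SE 0.264, limma adjusted p = 0.0117). The coding JAG2-201 took 38.9%, 37.9% and 63.6% of JAG2, and its log2 share rose by 1.15 between the same lines (SE 0.201, limma adjusted p = 0.0114). The retained-intron transcript JAG2-203 fell by 1.23 (SE 0.215, limma adjusted p = 0.0112), and JAG2-204, at 10.1% and 10.2% in MCF10A and MCF10AT1, was at 0 in MCF10Ca1a. The main NOTCH1 transcript, ENST00000651671.1, which the annotation used here does not list, took 76.0%, 68.3% and 94.1%, and its log2 share rose by 2.89 from MCF10AT1 to MCF10Ca1a (SE 0.525, limma adjusted p = 0.0131). These shares rest on the program's division of reads between overlapping transcripts, whose error was not used here.

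Beyond the 10 genes, 58 genes of the pathway were listed by role, and 53 were tested (DLK1, NEURL1, DTX1, HES5 and HEYL were too low). Of the 53, 15 were higher and 25 lower in MCF10AT1 than in MCF10A (75.5% called), 23 were higher and 24 lower in MCF10Ca1a than in MCF10AT1 (88.7%), and 22 were higher and 25 lower in MCF10Ca1a than in MCF10A (88.7%). Over all tested genes the called shares were 61.6% (29.8% higher, 31.8% lower), 78.4% (38.0% higher, 40.3% lower) and 80.9% (39.0% higher, 41.9% lower).

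The enzymes that put sugars on Notch receptors, which set how well receptors respond to Jagged and Delta ligands, were mostly lower in the derived lines. Of 8, 1 was higher and 7 lower in MCF10AT1 than in MCF10A, and 2 were higher and 6 lower in MCF10Ca1a than in MCF10A, where 31.8% and 41.9% of all tested genes were lower. POGLUT3, an O-glucosyltransferase of EGF repeats, had 2815, 2752 and 2653 counts for MCF10A, 1418, 1483 and 1284 for MCF10AT1, and 100, 91 and 101 for MCF10Ca1a. It was 14.9-fold lower in MCF10Ca1a than in MCF10A (log2 change -3.90, SE 0.0812, edgeR adjusted p = 4.51e-14). POFUT1, which adds the O-fucose on which the Fringe enzymes build, fell by 1.86 on the log2 scale in the same comparison (SE 0.0779, edgeR adjusted p = 3.50e-11). MFNG, 1 of the Fringe enzymes, rose by 2.67 (SE 0.170, edgeR adjusted p = 3.23e-09) from a mean of 0.538 to 3.43 CPM, and RFNG, another, rose by 0.96 (SE 0.0590, edgeR adjusted p = 2.16e-09). LFNG, the remaining Fringe enzyme, fell by 1.46 (SE 0.126, edgeR adjusted p = 9.23e-08).

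Other ligands were mostly lower in MCF10Ca1a. Of 7 tested, 1 was higher and 5 lower in MCF10Ca1a than in MCF10A, and 1 was higher and 3 lower in MCF10AT1 than in MCF10A, beside 41.9% and 31.8% of all tested genes lower. MFAP5, a matrix protein that can bind Notch, had 226, 195 and 189 counts for MCF10A, 54, 36 and 38 for MCF10AT1, and 0, 1 and 0 for MCF10Ca1a (edgeR adjusted p = 6.10e-10 for the last against the first). CCN3, a secreted matricellular protein, had 220, 175 and 201 counts, then 83, 63 and 83, then 1, 3 and 0 (edgeR adjusted p = 2.30e-09). No fold is given for these 2 genes, whose MCF10Ca1a libraries held 3 counts or fewer. EGFL7, a secreted Notch modulator, rose by 0.74 from MCF10A to MCF10Ca1a (SE 0.123, edgeR adjusted p = 7.28e-05). DLL4, the Delta ligand of vessels, was higher in MCF10AT1 than in MCF10A by 1.58 (SE 0.410, edgeR adjusted p = 0.00424), on 12 to 16 counts against 3 to 6. On log2(TPM + 1) that call was lost (0.06, limma adjusted p = 0.137).

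The proteases that cut the receptor did not move as 1 group. Of 9, 3 were higher and 5 lower in MCF10AT1 than in MCF10A, 4 higher and 3 lower in MCF10Ca1a than in MCF10AT1, and 3 higher and 4 lower in MCF10Ca1a than in MCF10A, beside 61.6%, 78.4% and 80.9% of all tested genes called. NCSTN, the substrate-binding subunit of gamma-secretase, fell by 0.92 at the first step (SE 0.0729, edgeR adjusted p = 1.13e-07) and rose by 1.75 at the second (SE 0.0742, edgeR adjusted p = 5.83e-11), the reverse of the course of NOTCH1. ADAM17, a sheddase, rose by 1.11 at the second step (SE 0.0531, edgeR adjusted p = 2.10e-10). APH1B, a gamma-secretase subunit, fell by 3.02 there (SE 0.146, edgeR adjusted p = 2.27e-10), though less by TPM, from 2.66 to 0.637 (-1.94 on log2(TPM + 0.1)). PSEN2, a catalytic subunit, was lower in MCF10Ca1a than in MCF10A by 1.38 (log2 change -1.38, SE 0.0648, edgeR adjusted p = 1.21e-10).

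Genes of ligand endocytosis and receptor turnover moved both ways. Of 11 tested, 6 were higher and 4 lower in MCF10Ca1a than in MCF10A, beside 39.0% higher and 41.9% lower over all tested genes. NEURL1B, a ubiquitin ligase that acts on Notch ligands, had 2267, 2017 and 2118 counts for MCF10A, 628, 569 and 575 for MCF10AT1, and 5, 5 and 7 for MCF10Ca1a. It fell by 1.83 on the log2 scale at the first step (SE 0.0703, edgeR adjusted p = 7.15e-11) and by 5.79 at the second (SE 0.164, edgeR adjusted p = 1.31e-12). DTX3, of the Deltex family, had 67, 62 and 73 counts, then 232, 209 and 240, then 0, 1 and 0, so it was highest in MCF10AT1 and nearly undetected in MCF10Ca1a. MIB2, another ligand ubiquitin ligase, rose by 1.51 at the second step (SE 0.0809, edgeR adjusted p = 6.57e-10), and NUMBL, an endocytic adaptor related to the Notch inhibitor NUMB, rose by 1.91 from MCF10A to MCF10Ca1a (SE 0.0664, edgeR adjusted p = 5.70e-12).

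In the nuclear complex, 8 of 13 genes were higher and 5 lower in MCF10Ca1a than in MCF10A, beside 39.0% higher and 41.9% lower over all tested genes. At the first step 3 were higher and 6 lower, beside 29.8% and 31.8% of all tested genes. At the second, 8 were higher and 2 lower, beside 38.0% and 40.3%. From MCF10AT1 to MCF10Ca1a, RBPJ itself fell by 0.56 (SE 0.0458, edgeR adjusted p = 5.63e-08). EP300, an acetyltransferase that joins the activated complex, rose by 1.20 at the first step (SE 0.0628, edgeR adjusted p = 1.52e-09) and was higher by 1.77 in MCF10Ca1a than in MCF10A (SE 0.0638, edgeR adjusted p = 7.86e-12). KAT2B, another acetyltransferase, fell by 2.68 in the latter comparison (SE 0.109, edgeR adjusted p = 2.68e-11). Of the Mastermind coactivators, MAML1 fell by 0.66 there (SE 0.0610, edgeR adjusted p = 1.83e-07) and MAML3 rose by 0.97 (SE 0.103, edgeR adjusted p = 9.12e-07).

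The other HES and HEY factors split. From MCF10AT1 to MCF10Ca1a, HES4 and HEY2 rose and HES2, HES6 and HES7 fell, so 2 of 5 were higher and 3 lower, beside 38.0% and 40.3% of all tested genes. HES4 rose by 0.97 on the log2 scale (SE 0.0889, edgeR adjusted p = 1.96e-07), from 4.06 ± 0.239 to 7.95 ± 0.379 CPM (SD, n = 3). HEY2 had 0, 0 and 1 counts for MCF10A, 6, 6 and 6 for MCF10AT1, and 14, 11 and 18 for MCF10Ca1a, and it rose by 2.12 at the second step (SE 0.391, edgeR adjusted p = 0.000203). HES2 fell by 1.64 (SE 0.0847, edgeR adjusted p = 4.70e-10) and HES7 by 1.16 (SE 0.109, edgeR adjusted p = 2.54e-07). By TPM the fall of HES2 was smaller, from 9.15 to 6.13 (-0.58 on log2(TPM + 0.1)). HES7 had risen by 1.28 at the first step (SE 0.103, edgeR adjusted p = 1.35e-07). TGGGAA was in the promoter windows of HES4 and HEY2, as in that of HES1 printed above, and in none of those of HES2, HES6 and HES7. HEY1, which rose by 1.37 at this step, was not matched to a window. HES5 and HEYL, too low to test, held 2 copies each. With 6 tested genes and windows of 300 bases this is a description only. Among all 45 matched genes of the other lists, 13 held TGGGAA in at least 1 window. Some genes had several windows, so this share per gene cannot be set beside the 24.0% of single windows. Of these 13 genes, 10 were tested at this step, and 5 were higher (among them HES4 and HEY2) and 5 lower (among them RBPJ, with 2 copies in 1 of its windows).

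For each gene, the most similar pattern was sought among the other members and pathway genes (62 candidates), by the root mean square difference of log2 CPM, centred over the 9 libraries. JAG1 was nearest to NUMBL at 0.0747. HES1 was nearest to JAG2 at 0.123 and NOTCH2 to DTX2 at 0.143. The closest genes to NOTCH1 and DLL1 were DTX4 at 0.225 and KAT2B at 0.250. Distances to the nearest gene were larger for NRARP (EP300, 0.300), NOTCH3 (HEY2, 0.413), HEY1 (APH1A, 0.467) and NOTCH4 (POFUT1, 0.704). The measure was not scaled, so it grows with the size of a gene's changes and does not rank the members by closeness of match. All points share the 9 libraries, so the measure is a description with no test.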

How the data were processed

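Polyadenylated RNA of 3 libraries per line was measured. Salmon (version not given in the sources used here) and genome build hg38 are named per the submitters' processing notes; the annotation is not given in the sources used here. The deposited tables held estimated counts and TPM per gene and per transcript, used as the authors made them, and gene counts named length-scaled and scaled by the authors.

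Estimated counts were rounded and filtered with filterByExpr (minimum count 10, total 15). All 9 libraries entered 1 edgeR 4.0.16 quasi-likelihood fit in R 4.3.3 with TMM scaling, and p-values were adjusted by Benjamini-Hochberg over 17910 genes at 0.05. Transcript shares were tested with limma 3.58.1 on log2 of (transcript + 0.5) over (rest of gene + 0.5), for transcripts with 10 counts in 3 libraries. SEs of edgeR changes came from the change and its F statistic. Positions and transcript types came from GENCODE 29 on GRCh38 through unversioned identifiers (92.9% of genes matched). The tests were tested on simulated data. DESeq2 1.42.0, limma on log2(TPM + 1) and log2(TPM + 0.1), the length-scaled and scaled counts, and each library left out were among the alternatives. Depth, from 32.9 to 69.5 M counts, limits precision, and counting error only is covered where counts are given.

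The members and gene lists were chosen with earlier results of these data known. Beyond the members, the text names, per list and comparison, up to 2 called genes with the largest rise and 2 with the largest fall, provided that the line with more held 10 counts on average, and member transcripts called with at least 10% of their gene in 1 line. The nearest gene to each member by pattern was also named, except for 1 result that is not reported here. HES6, NOTCH2-203, NOTCH4-205 and ENST00000680003.1 were named after their values were seen.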

Additional observations from a re-analysis of the deposited data

How the results depend on the processing

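Over 19 to 21 alternatives per change, 565 member values kept their direction and side of the threshold, 23 lost the call, 6 gained it and 6 changed sign, none of the last called in either setting. The sign changes were NOTCH1 in MCF10Ca1a against MCF10A (-0.00368 without the filter, -0.11 with length-scaled counts, -0.10 with scaled counts) and NRARP in MCF10Ca1a against MCF10AT1 (0.16 on log2(TPM + 1) with or without the filter, 0.20 on log2(TPM + 0.1)). On the log2(TPM + 0.1) scale the median of all genes itself moved by -0.11, 0.21 and 0.10 in the 3 comparisons, and on log2(TPM + 1) by 0.13 in MCF10Ca1a against MCF10AT1; relative to these shifts NRARP was at -0.01 and 0.03, and NOTCH1 in MCF10Ca1a against MCF10A at -0.04 and -0.01. JAG2 in MCF10AT1 against MCF10A was not called on log2(TPM + 1) without the filter (adjusted p = 0.0633, limma). The added constant understates changes of low genes on these scales: at log2(TPM + 0.1) NOTCH3 rose by 1.20 from MCF10A to MCF10AT1, DLL1 fell by 1.35 from MCF10A to MCF10Ca1a, and NEURL1B fell by 3.78 from MCF10AT1 to MCF10Ca1a. Called genes that were higher made up 61.6% of calls in MCF10Ca1a against MCF10AT1 on log2(TPM + 1) against 48.5% with edgeR, and 37.0% against 48.4% in MCF10AT1 against MCF10A on log2(TPM + 0.1). Scaled counts left 5 members called in MCF10Ca1a against MCF10AT1 in place of 9: NOTCH2, NOTCH4 (adjusted p = 0.102), JAG2 and DLL1 (adjusted p = 0.0585) were lost in edgeR; the cause was not tested.

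Genes with a changed transcript share in MCF10AT1 against MCF10A numbered 885, but 1524 with a pseudocount of 5 and 1369 at 50 counts or more. With 1 library left out they numbered 587 to 827, the lowest without MCF10A replicate 2. Replicate numbers did not pair the libraries: same-numbered libraries correlated by -0.0597 to 0.0451, 0 of 9 over 0.1, and 3 of 18 correlated best with their own number. With the replicate block the transcript-share count was 375, and the NOTCH1 transcript ENST00000651671.1 lost its call (adjusted p = 0.0554 against MCF10AT1 and 0.0890 against MCF10A, limma), as did JAG2-203 against MCF10A (adjusted p = 0.0547, limma), while 8, 9 and 8 members were called as before. Over 13 alternatives the NOTCH1 transcript lost its call against MCF10A in 8 and JAG2-203 in 5. Thinning all libraries to the smallest, chosen after the data were seen, left 8, 8 and 7 members called of 9 tested, since NOTCH4 no longer passed the filter. Counts of 0 to 7 in MCF10Ca1a limit what can be said of NOTCH4 and DLL1.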
